A study of Homo sapiens with 12 samples.

Results

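Long intergenic noncoding RNAs and antisense noncoding RNAs were measured among the transcripts recovered with HuR from MiaPaCa-2 cells. The set holds every transcript cluster (the array's unit, roughly 1 transcribed locus) whose single gene symbol is LINC followed by a number, or ends in -AS1, -AS2, -AS3 or -IT1, without OIP5-AS1. By this rule 2043 clusters of 1983 genes were taken out of the 36176 clusters with a single symbol, and the whole table has 135750 transcript clusters. They fall into 962 LINC clusters and 1081 antisense clusters, with 908 -AS1, 82 -AS2, 21 -AS3 and 70 -IT1 names. The antisense class goes by name alone. An -IT1 transcript lies in an intron of the gene it is named after. Of the 994 pairs of an antisense-class member and its named gene, 626 have start windows on opposite strands, 41 on the same strand and 327 had no window to compare. The rule used symbols only and no signal value, but it was set with earlier results of these data known.

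MiaPaCa-2 is a human pancreatic ductal adenocarcinoma (PDAC) cell line. Cells received olaparib, a PARP inhibitor, at 10 µM or gemcitabine, a nucleoside analog, at 1 µM for 16 h, or DMSO as the vehicle, and cytoplasmic lysates were immunoprecipitated with an anti-HuR antibody (HuR-IP) or with control immunoglobulin (IgG-IP). Each treatment had 2 Clariom D arrays of HuR-IP and 2 of IgG-IP, and the study asked which transcripts HuR holds and whether drug stress changes that. The 2 arrays of a group are called biological replicates in the labels without a word on their preparation, so p-values measure the spread between these arrays only. Values are deposited log2 signals after RMA normalization, and a log2 fold change is the HuR-IP mean minus the IgG-IP mean.

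HuR, the product of ELAVL1, is an RNA-binding protein that favours U-rich and AU-rich stretches and moves between nucleus and cytoplasm. Long noncoding RNAs do not code for protein, many stay in the nucleus, and those that reach the cytoplasm can bind proteins or microRNAs. An antisense RNA is read from the strand opposite to a neighbouring gene, and its start often lies close to the start of that gene. OIP5-AS1, which the rule leaves out, is a cytoplasmic noncoding RNA long known to bind HuR.

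The first 50 transcribed bases of 7 members are printed here because they lie furthest above (the first 4) or furthest below (the last 3) IgG-IP among the called members with a start window. They come from the start windows of RefSeq (GRCh38.p14), 5′ to 3′ in DNA letters on the transcript strand, with runs of at least 3 T (U in the RNA) in capitals.
ZBED5-AS1 (chr11:10858217-10858266, + strand): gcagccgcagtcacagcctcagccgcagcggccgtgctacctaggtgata
FOXD2-AS1 (chr1:47434592-47434641, - strand): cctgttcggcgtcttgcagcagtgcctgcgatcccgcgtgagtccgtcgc
LINC00941 (chr12:30795681-30795730, + strand): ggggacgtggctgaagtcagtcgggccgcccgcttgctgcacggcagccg
LINC00294 (chr11:33076150-33076199, + strand): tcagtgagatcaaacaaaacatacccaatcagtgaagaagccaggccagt
EPB41L4A-AS1 (chr5:112160526-112160575, + strand): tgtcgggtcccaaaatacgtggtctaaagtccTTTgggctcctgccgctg
MAPKAPK5-AS1 (chr12:111842956-111843005, - strand): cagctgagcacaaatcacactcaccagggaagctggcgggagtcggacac
PRR34-AS1 (chr22:46053846-46053895, + strand): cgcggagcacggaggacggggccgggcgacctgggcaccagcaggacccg

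EPB41L4A-AS1 has a run of 3 T in this stretch and the other 6 do not. The share of T in it is 14% in ZBED5-AS1, LINC00941 and LINC00294, 24% in FOXD2-AS1, 28% in EPB41L4A-AS1, 10% in MAPKAPK5-AS1 and 2% in PRR34-AS1. Start windows were at hand for 24 of the members called higher below, 18 of those called lower, 1482 of all members and 18257 of all clusters tested. The motif TTT, searched on the transcribed strand alone, stands in the first 50 bases of 29.2% of the called higher members, 33.3% of the called lower members, 38.2% of all members and 30.9% of all tested. ATTTA, which contains TTT, stands in 0 of the called higher members, 0 of the called lower members, 2.56% of all members and 1.30% of all tested. These are descriptions of the start of each RNA, and the rest of the transcripts was not analysed here.

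Most members were dim. Their median signal over the 12 arrays was 3.72, against 4.19 for all clusters tested, while antigenomic background probes had array medians of 2.88 to 3.01. Of the 2043 members, 678 (33.2%) averaged above 4, 120 (5.87%) above 6 and 12 above 10, whereas 37.6% of protein-coding clusters averaged above 6. The LINC class had 45 clusters above 6 and the antisense class 75. The number of arrays limits the precision, and a dim cluster may report background more than RNA.

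The array label agreed in part with the markers of the cell line. KRT18 (mean signal 13.99), KRT8 (10.07) and VIM (12.4) were bright, and KRT7 (7.35) and KRT19 (5.58) were dimmer. EPCAM (3.29) and CDH1 (3.46) were near background, and the acinar markers lay between 2.85 and 4.15. Of the immune markers, CD68 (6.82) and CD3E (5.67) were above background, and PTPRC (3.91) and LYZ (3.67) were dim. The neuronal markers SNAP25 and RBFOX3 averaged 4.61 and 3.31. MALAT1, a nuclear RNA, averaged 10.6 with the HuR antibody against 12.3 with IgG (log2 fold change -1.71, limma adjusted p = 0.0962). KCNQ1OT1, also a nuclear RNA, was dim and went the other way, with 4.15 against 3.70 (log2 fold change 0.45, limma adjusted p = 0.213). Correlations between arrays were 0.88 to 0.99. In DMSO and in gemcitabine the second HuR-IP array stood closer to IgG-IP than the first, and counts without these 2 arrays are given with the main counts.

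Over the 3 treatments, 33 members lay above IgG-IP and 21 below it in HuR-IP (limma, adjusted p under 0.05, 6 arrays against 6). That is 1.62% and 1.03% of the members, beside 2.37% higher and 7.15% lower of all 36176 clusters tested. The LINC class had 17 higher and 7 lower, and the antisense class 16 higher and 14 lower. The median log2 fold change was 0.03 over the members and -0.07 over all tested, and 54.9% of members and 41.9% of all tested lay above 0. For comparison, 1265 clusters of other long noncoding RNA genes had 21 higher and 22 lower with a median of 0.02, and 19505 protein-coding clusters had 634 higher and 1577 lower with a median of -0.11.

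**Figure D1:**
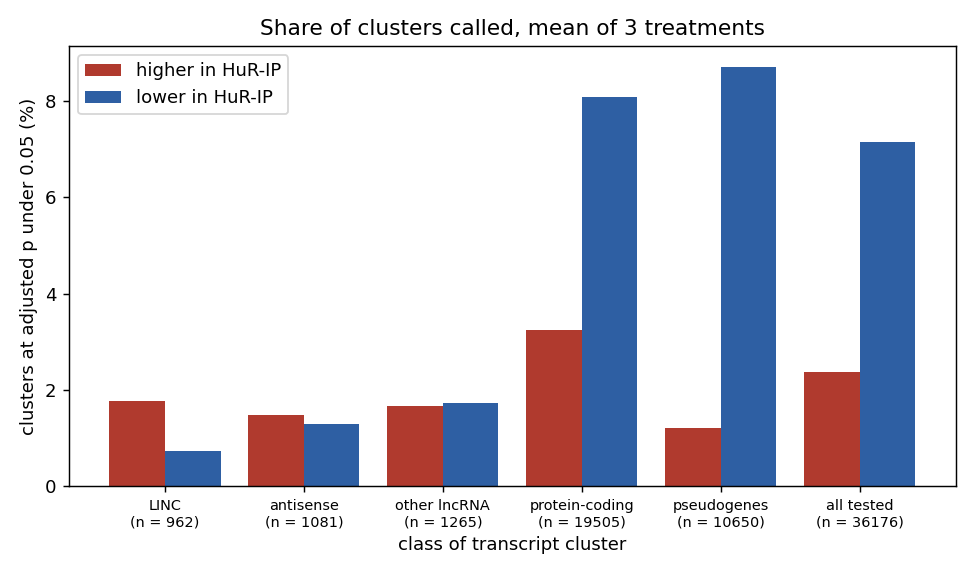
Share of transcript clusters (%, y axis) called higher (red) and lower (blue) in HuR-IP than in IgG-IP in the mean of 3 treatments, by class of cluster (x axis). LINC clusters had 1.77% higher and 0.728% lower, antisense clusters 1.48% and 1.3%, and all clusters tested 2.37% and 7.15%.

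These counts depended on the arrays and on the scaling. A block for the replicate number gave 78 higher and 32 lower members (6.37% and 11.1% of all clusters), and leaving out the second HuR-IP arrays of DMSO and gemcitabine gave 92 and 26 (6.54% and 10.4%). Leaving out any 1 array gave 7 to 57 higher and 8 to 21 lower, the 7 without the first IgG-IP array of DMSO. Of the called members, 61.1% were higher, against 83.1% with cyclic loess, 82.7% with quantile normalization and 94.9% after centring arrays on their bright clusters (24.9%, 52.2%, 42.8% and 56.2% of all called clusters). Centring moved the median of all clusters by 0.43, and since it shifts all clusters of an array alike, the median of the members stayed 0.10 above that of all. The gap was 0.06 with cyclic loess and 0.08 with quantile normalization.

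Among clusters with a mean above 6, 20 of 120 members were higher and 10 were lower, with a median log2 fold change of 0.71. Of the 9406 such clusters tested, 689 were higher and 1979 lower, with a median of -0.54. LINC clusters of this brightness had a median of 0.77 (9 higher and 3 lower of 45), antisense clusters 0.64 (11 and 7 of 75) and other long noncoding RNAs -0.16 (11 and 15 of 105). Of the 120 members, 22 averaged above 6 on the HuR-IP arrays but not on the IgG-IP arrays and 6 the other way round, so the signal limit itself took in clusters on 1 side more than on the other, and these values are a description. The block gave 49 higher and 11 lower of the 120 (1836 and 2959 of all 9406), and without the second HuR-IP arrays of DMSO and gemcitabine there were 46 and 14 (1689 and 3025).

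**Figure D2:**
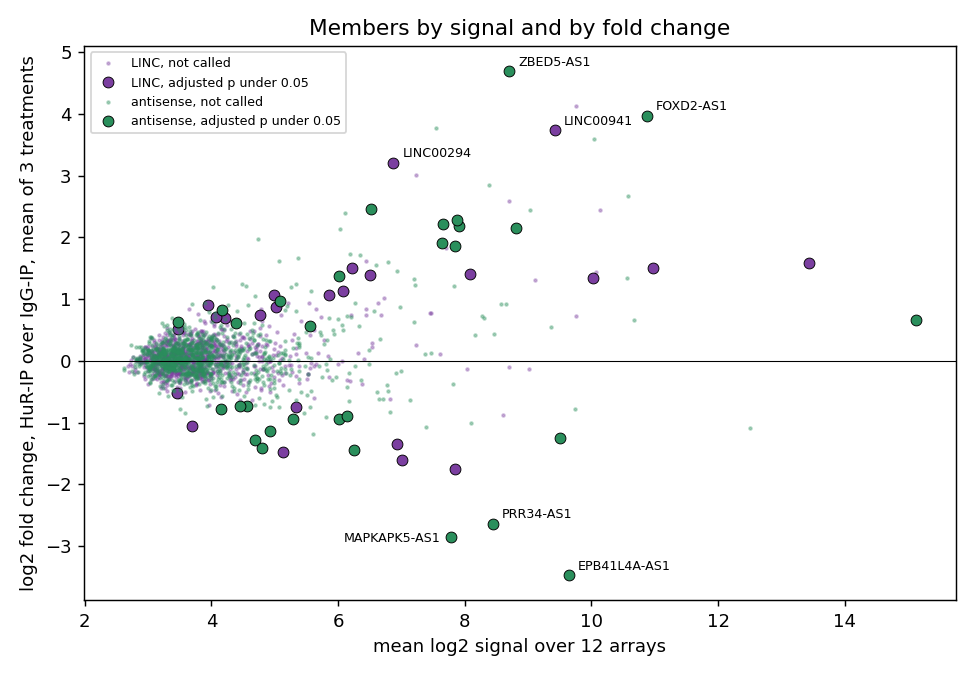
Log2 fold change of HuR-IP over IgG-IP in the mean of 3 treatments (y axis) against the mean log2 signal over 12 arrays (x axis) for the 2043 members, LINC in purple and antisense in green, with large outlined points for an adjusted p under 0.05. Members below a signal of 4 crowd around 0, and those furthest from 0 average between 6 and 11.

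ZBED5-AS1, an uncharacterized antisense RNA to a zinc finger gene, lay furthest above IgG-IP. Its signals were 12.35 and 7.83 in HuR-IP against 6.49 and 7.06 in IgG-IP of DMSO, 12.78 and 11.86 against 6.11 and 6.20 in olaparib, and 13.49 and 8.0 against 6.73 and 5.58 in gemcitabine. All 6 HuR-IP arrays were above the IgG-IP arrays of their treatment, the second arrays of DMSO and gemcitabine by less than 1.5 units and the other 4 by more than 5 units. The log2 fold change over the treatments was 4.69 (SE 1.03, adjusted p = 0.0257).

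FOXD2-AS1, which has been described as a growth-promoting RNA in several tumours, was bright with both antibodies. It had 15.08 and 10.39 in HuR-IP against 9.68 and 8.84 in IgG-IP of DMSO, 14.27 and 12.89 against 9.39 and 8.29 in olaparib, and 13.98 and 10.53 against 9.02 and 8.10 in gemcitabine. The groups did not overlap in any treatment, and the second array was the lower of each HuR-IP pair. Its log2 fold change was 3.97 (SE 0.88, adjusted p = 0.0268).

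LINC00941, an intergenic RNA described in pancreatic and colorectal cancer, had 13.01 and 9.21 in HuR-IP against 8.25 and 8.83 in IgG-IP of DMSO, 12.84 and 11.35 against 7.92 and 6.45 in olaparib, and 12.65 and 8.66 against 7.41 and 6.48 in gemcitabine. Every HuR-IP array was again above its IgG-IP arrays, by the smallest margin on the second array of DMSO. The log2 fold change was 3.73 (SE 0.85, adjusted p = 0.0299).

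LINC00294, shown above with an A-rich start, was dimmer. Its signals were 8.83 and 6.47 in HuR-IP against 5.72 and 5.00 in IgG-IP of DMSO, 9.95 and 8.82 against 5.6 and 4.57 in olaparib, and 10.15 and 6.64 against 5.79 and 4.91 in gemcitabine. The antibodies did not overlap in any treatment, and the log2 fold change was 3.21 (SE 0.66, adjusted p = 0.0199). Called with smaller differences were ASB16-AS1 at 2.46 (SE 0.63), CCDC28A-AS1 at 2.18 (SE 0.52), CERS6-AS1 at 1.90 (SE 0.50) and USP2-AS1 at 1.85 (SE 0.45).

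**Figure D3:**
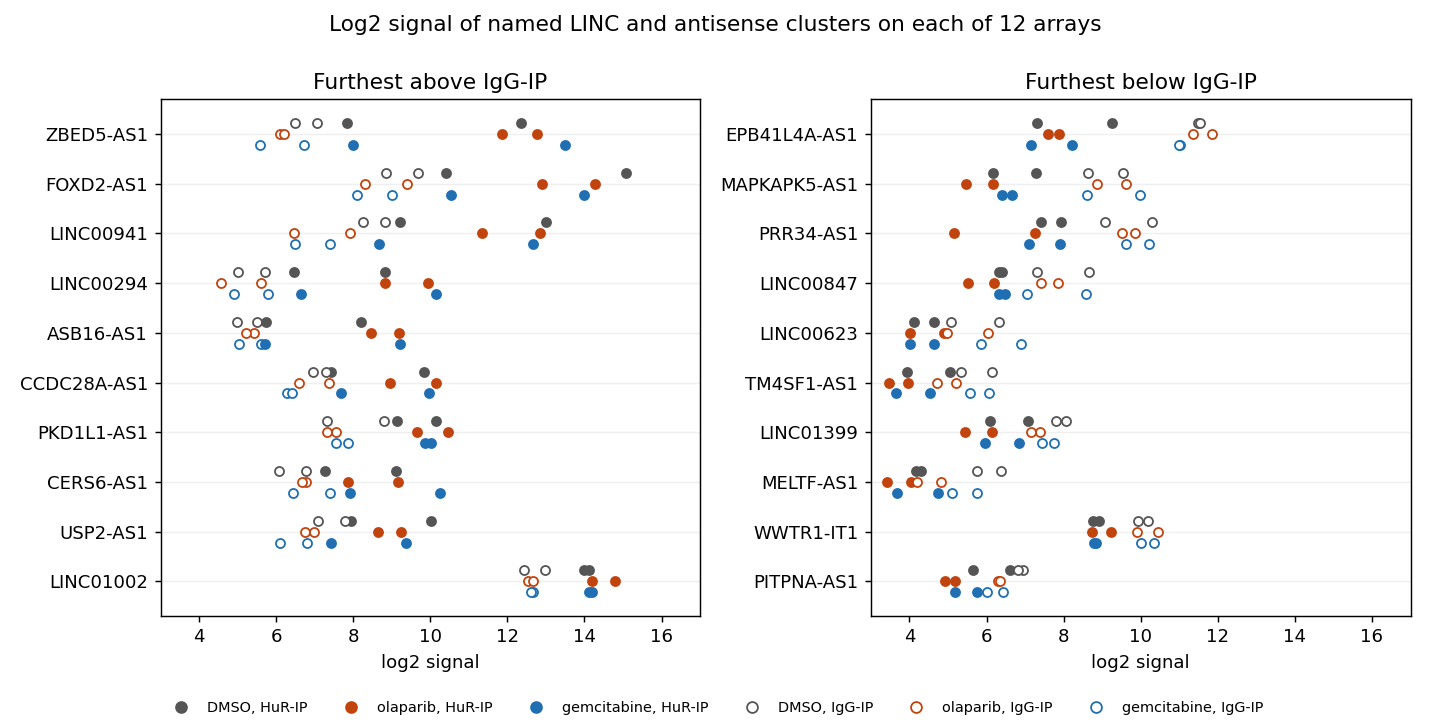
Log2 signal (x axis) on each of 12 arrays for the 10 called members furthest above IgG-IP (left) and the 10 furthest below (right) whose HuR-IP arrays all lay on 1 side of the IgG-IP arrays of their treatment, with filled points for HuR-IP, open points for IgG-IP and colours for treatments. ZBED5-AS1 spans 7.83 to 13.49 on HuR-IP arrays, while LINC01002 spans 13.99 to 14.79.

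A smaller difference with a narrow spread was seen for LINC01002, the second brightest member. It had 13.99 and 14.12 in HuR-IP against 12.42 and 12.98 in IgG-IP of DMSO, 14.20 and 14.79 against 12.55 and 12.67 in olaparib, and 14.11 and 14.18 against 12.67 and 12.61 in gemcitabine. The lowest HuR-IP array was above the highest IgG-IP array, and here the second arrays of DMSO and gemcitabine did not stand apart. Its log2 fold change was 1.58 (SE 0.16, adjusted p = 0.000829).

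PKD1L1-AS1 also lay above IgG-IP in each treatment, at a lower signal and with a wider spread. Its second DMSO array was the lowest of its HuR-IP arrays. Its values were 10.14 and 9.14 in HuR-IP against 8.79 and 7.33 in IgG-IP of DMSO, 9.66 and 10.47 against 7.56 and 7.32 in olaparib, and 10.01 and 9.86 against 7.86 and 7.56 in gemcitabine. The difference averaged 2.14 (SE 0.30, adjusted p = 0.00352). LINC00999 (1.4, SE 0.19), LINC01000 (1.33, SE 0.22) and LINC00083 (0.75, SE 0.14) also stayed past the threshold when any 1 of the 12 arrays was left out, as did LINC01002 and PKD1L1-AS1, and these 3 names were added after that was seen. LINC00083 is an older symbol of what RefSeq now lists as CLEC20A, a protein-coding gene, so this cluster leaves the set when symbols are brought up to date. The other 28 members called higher, ZBED5-AS1, FOXD2-AS1, LINC00941 and LINC00294 among them, lost the call in at least 1 of the 12 refits.

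RBMS3-AS2 was the brightest member. It reached 15.77 and 15.54 in HuR-IP against 14.65 and 15.08 in IgG-IP of DMSO, 15.39 and 16.03 against 14.69 and 14.84 in olaparib, and 15.15 and 14.86 against 14.68 and 14.81 in gemcitabine. Each HuR-IP array was above the IgG-IP arrays of its treatment, in gemcitabine by a small margin. The log2 fold change of 0.66 (SE 0.17, adjusted p = 0.0441) was among the smallest of the called members, so a high signal did not go with a large difference here.

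The member furthest below IgG-IP was EPB41L4A-AS1, a host RNA of a small nucleolar RNA. Its signals were 7.32 and 9.25 in HuR-IP against 11.48 and 11.53 in IgG-IP of DMSO, 7.89 and 7.60 against 11.37 and 11.85 in olaparib, and 7.16 and 8.21 against 11.03 and 10.98 in gemcitabine. The IgG-IP arrays lay within 1 unit of each other, and all 6 HuR-IP arrays lay below them. Its log2 fold change was -3.47 (SE 0.34), and its adjusted p of 0.000628 was the lowest of the members.

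MAPKAPK5-AS1 had 6.17 and 7.29 in HuR-IP against 9.55 and 8.63 in IgG-IP of DMSO, 6.17 and 5.46 against 9.61 and 8.86 in olaparib, and 6.39 and 6.66 against 9.98 and 8.60 in gemcitabine (log2 fold change -2.85, SE 0.34, adjusted p = 0.00155). PRR34-AS1 had 7.41 and 7.92 in HuR-IP against 10.28 and 9.08 in IgG-IP of DMSO, 7.26 and 5.16 against 9.86 and 9.51 in olaparib, and 7.89 and 7.09 against 10.22 and 9.62 in gemcitabine (log2 fold change -2.64, SE 0.39, adjusted p = 0.0047). For both RNAs the highest HuR-IP array was below the lowest IgG-IP array. Of their starts printed above, that of EPB41L4A-AS1 alone has a T run.

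LINC clusters called lower had smaller differences than these antisense RNAs. LINC01588 had 7.03 and 7.93 in HuR-IP against 8.60 and 7.89 in IgG-IP of DMSO, where the antibodies overlapped, 5.69 and 6.37 against 7.99 and 8.72 in olaparib, and 6.94 and 7.87 against 9.65 and 9.46 in gemcitabine (log2 fold change -1.74, SE 0.28, adjusted p = 0.00603). LINC00847 (-1.61, SE 0.33), LINC00623 (-1.47, SE 0.34) and LINC01399 (-1.34, SE 0.25) followed. LINC00623 had a second, dimmer cluster at 0.44 that was not called, so the clusters of this gene differed by 1.91, the widest gap among the 51 genes with more than 1 cluster (median gap 0.24). TM4SF1-AS1 (-1.4, SE 0.28), MELTF-AS1 (-1.28, SE 0.26) and PITPNA-AS1 (-0.94, SE 0.21) were antisense RNAs with smaller differences on this side.

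The calls of the lower members rested less on single arrays at the top of the list. Called in all 12 refits without 1 array were EPB41L4A-AS1, MAPKAPK5-AS1, PRR34-AS1, LINC01588, LINC01399 and WWTR1-IT1, 6 of the 21. Under cyclic loess 12 of the 21 lower and 33 of the 33 higher members kept an adjusted p under 0.05, and with each array centred on the bright clusters 5 of 21 and 31 of 33 did.

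A large difference was not always called. Of the 34 members with a log2 fold change above 1.5, 14 passed the adjusted p and 20 did not, whereas all 5 members under -1.5 passed. Over all clusters tested, 553 of 1365 above 1.5 and 1686 of 2381 under -1.5 passed. LINC02210 had 14.03 and 8.64 in HuR-IP against 8.78 and 7.40 in IgG-IP of DMSO, 13.66 and 11.78 against 7.94 and 5.71 in olaparib, and 13.97 and 8.85 against 8.66 and 7.70 in gemcitabine (log2 fold change 4.12, SE 1.15, adjusted p = 0.0608). MAP3K14-AS1, next to the gene of a kinase of the NF-kappaB pathway, had 3.77 (SE 1.32, adjusted p = 0.122) and CKMT2-AS1 3.59 (SE 1.23, adjusted p = 0.114). The replicate block brought 14 of these 20 past the adjusted p, among them LINC02210 (0.00298), MAP3K14-AS1 (0.0187) and CKMT2-AS1 (0.0111), and 1287 of the 1365 clusters above 1.5 then passed. Without the second HuR-IP arrays of DMSO and gemcitabine 55 members were above 1.5, of which 49 passed. In LINC02210, MAP3K14-AS1 and CKMT2-AS1 the second HuR-IP array of DMSO and of gemcitabine was more than 5 units below the first. SVIL-AS1, among the 5 brightest members on HuR-IP arrays, had 2.67 (SE 0.78, adjusted p = 0.071), and the block brought the adjusted p to 0.0132.

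The second HuR-IP array was not the lower one throughout. Among the 33 members called higher, the second array was below the first in 24 in DMSO, 18 in olaparib and 30 in gemcitabine, with median differences of -0.38, -0.03 and -0.46. Between the IgG-IP arrays the same medians were 0.05, 0.04 and -0.11. Among the 21 lower members the second HuR-IP array was below the first in 8, 11 and 7, with medians of 0.13, -0.29 and 0.34. For a lower member a second array above the first lies toward IgG-IP, as one below the first does for a higher member. Both sets had passed the adjusted p, which a wide spread between the arrays of a group makes harder to reach. What set the second HuR-IP arrays of DMSO and gemcitabine apart was not tested.

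Counted without a model, 57 members (2.79%) had both HuR-IP arrays above both IgG-IP arrays in all 3 treatments and 33 (1.62%) had them below. Of all clusters tested, 3.14% were above and 7.88% were below in this way. Without the second HuR-IP arrays of DMSO and gemcitabine, 181 members (8.86%) were above and 85 (4.16%) below, beside 9.41% and 16.3% of all clusters. In both counts the share above was near that of all clusters and the share below was smaller. Other long noncoding RNA clusters, with the same median signal of 3.72 as the members, had 2.53% above and 3.32% below over all arrays. All clusters tested had a median signal of 4.19, and what part brightness has in these shares was not tested. The LINC class had 27 above and 10 below, and the antisense class 30 above and 23 below.

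Within single treatments few members were called. In DMSO 0 members were higher and 0 lower at the adjusted p, where 0.0193% and 0.423% of all clusters were, and at an unadjusted p under 0.05 there were 28 and 46 members (1.81% and 5.65% of all clusters). In olaparib 6 members were higher and 4 lower (0.437% and 2.91% of all clusters), and 115 and 45 at the unadjusted p (5.62% and 11.9%). In gemcitabine 0 were higher and 1 lower (0.0498% and 0.907%), and 71 and 37 at the unadjusted p (2.92% and 7.34%).

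A replicate block moved these numbers. With that block DMSO had 1 higher and 1 lower member (0.229% and 1.09% of all clusters), olaparib 28 and 11 (3.15% and 6.47%), and gemcitabine 4 and 4 (0.448% and 2.11%). Without the second HuR-IP arrays of DMSO and gemcitabine DMSO had 15 and 1 (1.71% and 1.28%), olaparib 35 and 9 (2.81% and 5.79%), and gemcitabine 29 and 2 (2.14% and 3.1%). These arrays were left out because they lay close to IgG-IP, and without 1 of them alone DMSO still had 0 higher members and gemcitabine had 1. The olaparib calls also depended on single arrays: 0 members were called there without either IgG-IP array or without the second HuR-IP array of olaparib, and 2 higher and 1 lower were called with a trended and robust prior.

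The 6 members called higher in olaparib were PKD1L1-AS1 (2.63, adjusted p = 0.036), LINC01169 (2.51, adjusted p = 0.014), LINC01002 (1.89, adjusted p = 0.0129), LINC00999 (1.57, adjusted p = 0.0393), LINC01602 (1.34, adjusted p = 0.036) and SUCLA2-AS1 (1.08, adjusted p = 0.0412). SUCLA2-AS1 is outside the 5 that the naming rule takes and was added after its values were seen. LINC01169 had 7.90 and 7.31 in HuR-IP against 4.98 and 5.19 in IgG-IP of olaparib, 5.90 and 5.22 against 5.22 and 5.89 in DMSO, and 6.36 and 5.65 against 5.43 and 5.19 in gemcitabine. Only in olaparib were its antibodies more than 2 units apart, and in DMSO they overlapped.

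The 4 members called lower in olaparib were EPB41L4A-AS1 (-3.87, adjusted p = 0.0133), PRR34-AS1 (-3.47, adjusted p = 0.0345), MAPKAPK5-AS1 (-3.42, adjusted p = 0.0202) and LINC01588 (-2.32, adjusted p = 0.04). EPB41L4A-AS1 was also the single call in gemcitabine (-3.32, adjusted p = 0.0454). In DMSO the same RNA had -3.22 (adjusted p = 0.0745), so its values were close in the 3 treatments.

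**Figure D4:**
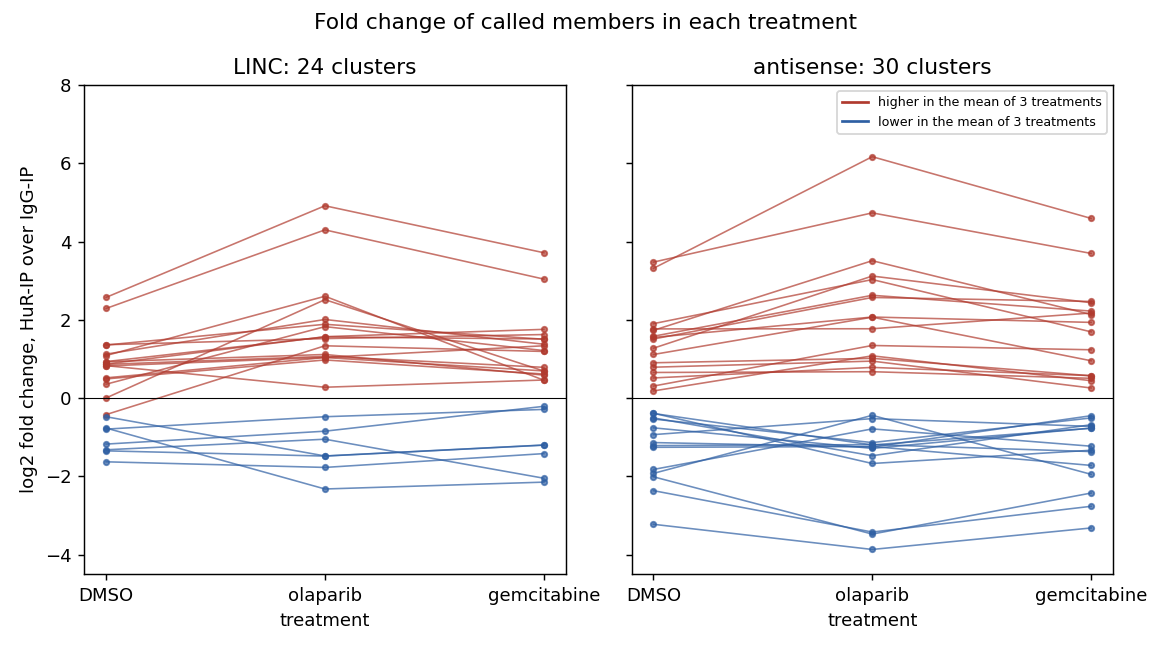
Log2 fold change of HuR-IP over IgG-IP (y axis) in DMSO, olaparib and gemcitabine (x axis) for the 24 LINC and 30 antisense clusters called in the mean of 3 treatments, 1 line per cluster, red for higher and blue for lower. ZBED5-AS1, the line highest in olaparib, goes through 3.31, 6.17 and 4.59.

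Whether the drugs changed the difference between antibodies was tested as the HuR-IP minus IgG-IP difference of each drug minus that of DMSO. At the adjusted p 0 members were higher and 0 lower for olaparib and 0 and 0 for gemcitabine (limma), and likewise 0% of all clusters in each direction. At an unadjusted p under 0.05, 39 members were higher and 17 lower for olaparib (1.25% and 1.45% of all clusters), and 38 and 12 for gemcitabine (0.92% and 0.639%). Both comparisons share the DMSO arrays. Without the second HuR-IP arrays of DMSO and gemcitabine the unadjusted counts were 16 and 11 for olaparib (0.586% and 1.63% of all clusters) and 29 and 7 for gemcitabine (0.752% and 0.959%), and 0 members passed the adjusted p.

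Of the 33 members called higher over the treatments, 32 had a larger log2 fold change in olaparib than in DMSO, as had 744 of the 859 clusters called higher among all tested. Their medians were 0.93 (DMSO), 1.77 (olaparib) and 1.34 (gemcitabine). On the arrays numbered 1 the medians were 1.17, 1.60 and 1.44, and on those numbered 2 they were 0.64, 1.73 and 0.96, so the gap between olaparib and the other treatments was wider on the second arrays. The 21 lower members had medians of -1.18, -1.25 and -1.23.

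LINC01602 had the smallest unadjusted p of the named members for both drugs. Olaparib gave 4.96 and 5.08 in HuR-IP against 4.02 and 3.35 in IgG-IP, gemcitabine 4.87 and 4.67 against 3.53 and 3.64, and DMSO 3.45 and 3.53 against 3.86 and 3.96. The antibody order in both drugs was opposite to that in DMSO, at signals not far from background. The drug minus DMSO difference was 1.76 (SE 0.38, unadjusted p = 0.00136) for olaparib and 1.61 (SE 0.38, unadjusted p = 0.00231) for gemcitabine, and neither passed the adjusted p. LINC01169 had 2.51 (SE 0.55) for olaparib and 0.69 (SE 0.55) for gemcitabine.

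In the other direction, PAX8-AS1 had 5.95 and 4.82 in HuR-IP against 8.06 and 7.30 in IgG-IP of olaparib, 6.37 and 7.99 against 8.46 and 9.12 in gemcitabine, and 7.53 and 8.45 against 7.77 and 6.85 in DMSO. HuR-IP was below IgG-IP in both drugs without overlap, and the antibodies overlapped in DMSO. The differences were -2.97 (SE 0.93, unadjusted p = 0.0115) for olaparib and -2.28 (SE 0.93, unadjusted p = 0.0375) for gemcitabine. ATP6V0E2-AS1 had -1.68 (SE 0.65) for olaparib.

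Each antisense member was set beside the gene it is named after where that gene had a cluster of its own, which gave 994 pairs. In 867 pairs neither was called over the treatments. The antisense RNA alone was higher in 13 and lower in 13, and the named gene alone was higher in 47 and lower in 53. Of all clusters tested, 2.37% were higher and 7.15% lower. In 1 pair both were higher, and in 0 pairs were they called in opposite directions. The replicate block gave 6 pairs called in the same direction and 3 in opposite directions, and without the second HuR-IP arrays of DMSO and gemcitabine there were 6 of each. Over the 37 pairs in which both averaged above 6, log2 fold changes correlated at 0.13 (Pearson) and 0.22 (Spearman), across pairs that share the same 12 arrays.

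**Figure D5:**
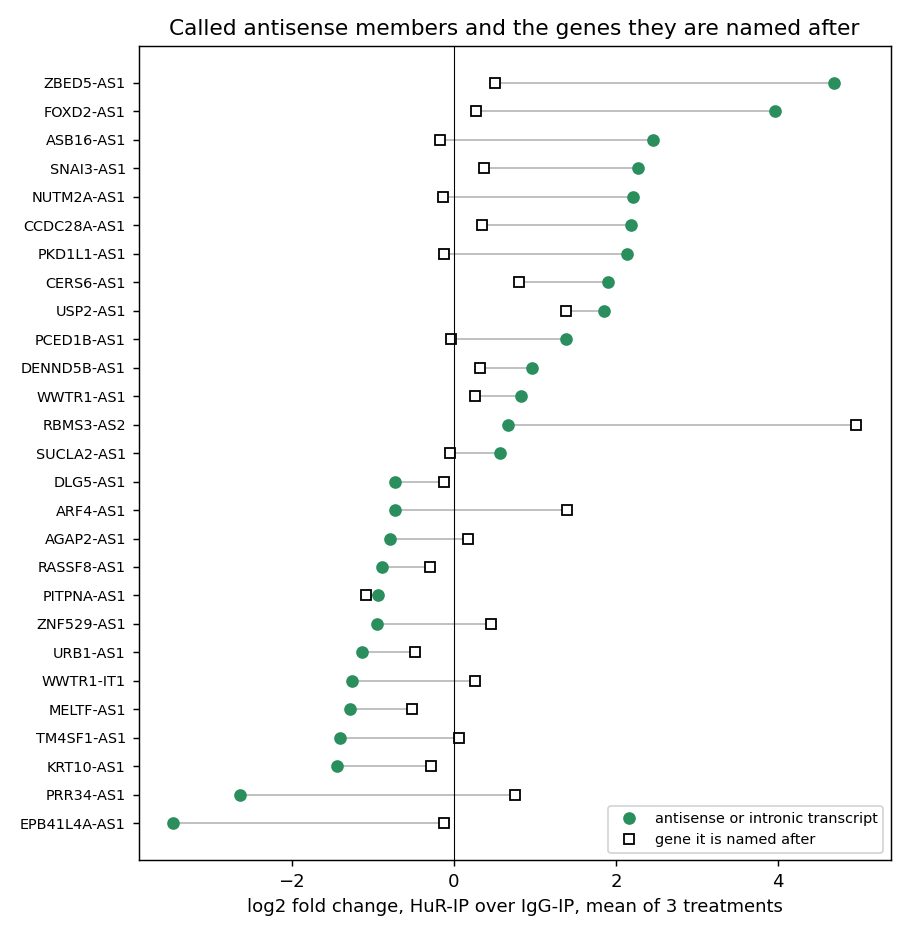
Log2 fold change of HuR-IP over IgG-IP in the mean of 3 treatments (x axis) for the 27 called antisense members with a measured partner (green circles) and for the gene each is named after (open squares). ZBED5-AS1 lies at 4.69 and ZBED5 at 0.51, while RBMS3 (4.97) lies above RBMS3-AS2 (0.66).

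The pair ZBED5-AS1 and ZBED5 shows 2 transcripts that start 164 bases apart on opposite strands. ZBED5 had 9.70 and 7.86 in HuR-IP against 7.85 and 8.33 in IgG-IP of DMSO, 8.89 and 8.06 against 7.78 and 7.91 in olaparib, and 9.53 and 7.57 against 8.03 and 8.63 in gemcitabine. Its antibodies overlapped in DMSO and gemcitabine, and the log2 fold change was 0.51 (SE 0.42, adjusted p = 0.535), against 4.69 for ZBED5-AS1. The window around the start of ZBED5-AS1 is printed to show this shared start region (RefSeq, GRCh38.p14, 263 of its 300 bases also in the window of ZBED5), with the first 50 transcribed bases of ZBED5-AS1 in capitals.
ZBED5-AS1 start window (chr11:10857967-10858266, + strand): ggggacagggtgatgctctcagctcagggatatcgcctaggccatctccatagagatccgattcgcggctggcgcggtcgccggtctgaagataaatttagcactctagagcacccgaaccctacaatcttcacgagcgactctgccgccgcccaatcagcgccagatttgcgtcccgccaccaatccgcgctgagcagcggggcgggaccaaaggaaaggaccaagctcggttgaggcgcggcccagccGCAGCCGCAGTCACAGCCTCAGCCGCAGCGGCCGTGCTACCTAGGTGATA

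Pairs of this kind, on opposite strands with overlapping start windows, numbered 82. Of their antisense RNAs 2 were higher and 2 lower, beside 2.37% and 7.15% of all clusters tested. CCDC28A-AS1 (2.18) stood beside CCDC28A at 0.35 (SE 0.80), and TM4SF1-AS1 (-1.4) beside TM4SF1, a surface protein of tumour cells, at 0.07 (SE 0.13). TM4SF1 averaged 19.7, near the top of the scale, where differences may be compressed. How far the array separates an antisense RNA from its partner by strand is not given in the sources used here.

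RBMS3, which codes for an RNA-binding protein, was the partner called together with its antisense RNA. It had 14.81 and 9.84 in HuR-IP against 7.93 and 9.10 in IgG-IP of DMSO, 15.12 and 15.29 against 8.20 and 9.27 in olaparib, and 15.49 and 10.36 against 8.22 and 8.39 in gemcitabine (log2 fold change 4.97, SE 1.03, adjusted p = 0.0208). RBMS3-AS2 changed far less in the main fit, 0.66, at a higher signal. Its call was kept with the replicate block (limma adjusted p = 0.03) and with cyclic loess (1.49, adjusted p = 0.00628). The call was lost with centring (1.09, adjusted p = 0.0509) and with the trended and robust prior (adjusted p = 0.371). Without the second HuR-IP arrays of DMSO and gemcitabine its log2 fold change was 0.75. The second HuR-IP arrays of RBMS3-AS2 lay 0.23 (DMSO) and 0.30 (gemcitabine) below the first.

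At the locus of WWTR1, the gene of the Hippo pathway coactivator TAZ, 2 members were called in opposite directions. WWTR1-IT1 had 8.76 and 8.92 in HuR-IP against 10.19 and 9.92 in IgG-IP of DMSO, 8.74 and 9.23 against 9.91 and 10.44 in olaparib, and 8.83 and 8.78 against 10.00 and 10.34 in gemcitabine (log2 fold change -1.26, SE 0.17, adjusted p = 0.00262). WWTR1-AS1, much dimmer, had 4.31 and 4.34 in HuR-IP against 3.54 and 3.31 in IgG-IP of DMSO, 5.24 and 4.80 against 3.72 and 4.28 in olaparib, and 4.69 and 4.15 against 3.50 and 4.20 in gemcitabine (log2 fold change 0.83, SE 0.20, adjusted p = 0.0367), and its antibodies overlapped in gemcitabine. WWTR1 itself had 0.26 (SE 0.32, adjusted p = 0.691). The call of WWTR1-IT1 was lost with cyclic loess (-0.53, adjusted p = 0.282), with centring (-0.83, adjusted p = 0.122) and with the trended and robust prior (adjusted p = 0.0609), and WWTR1-AS1 kept its call in 3 of 12 refits without 1 array. WWTR1-AS1 and this grouping were chosen after the values were seen.

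A list of 34 names, most of them described in cancer or in hypoxia, was followed whatever its values. NORAD (LINC00657) and CYTOR (LINC00152) stand on it under both names. The array annotation has them as NORAD and CYTOR, symbols that the rule for members does not take. The list had 29 clusters of 27 genes here. Of these, 2 were higher (FOXD2-AS1 and LINC00941) and 0 lower, beside 2.37% and 7.15% of all clusters tested. The median log2 fold change was -0.01 (-0.07 over all tested), and 11 of the 29 averaged below 4. LINC00963 had 12.71 and 9.25 in HuR-IP against 8.73 and 8.70 in IgG-IP of DMSO, 12.17 and 10.64 against 9.0 and 8.44 in olaparib, and 13.55 and 9.84 against 9.64 and 9.01 in gemcitabine. Its antibodies did not overlap, and the log2 fold change of 2.44 (SE 0.76, adjusted p = 0.0867) did not pass.

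FGD5-AS1 (1.34, SE 0.47, adjusted p = 0.124) and LINC00467 (1.44, SE 0.92, adjusted p = 0.403) were also bright and not called. CDKN2B-AS1, known as ANRIL and described as a partner of Polycomb proteins, had a mean signal of 3.59 and a log2 fold change of -0.21, and AFAP1-AS1 and GATA6-AS1 had -0.03 and 0.00 at signals of 3.22 and 3.38. None of these 3 passed the adjusted p. PCNA-AS1 had -0.58 (SE 0.17, adjusted p = 0.0769), while PCNA, the sliding clamp of DNA replication, had -2.46 (SE 0.37, adjusted p = 0.0047).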

How the data were processed

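RNA from HuR-IP and IgG-IP of MiaPaCa-2 cytoplasm was hybridized to 12 Clariom D arrays. The authors normalized raw intensities in Affymetrix Expression Console 1.4, the submitters' processing notes name RMA, and the deposited values are log2 signals, used as deposited. Summarization settings, the array's genome build and strand handling are not given in the sources used here, so cluster coordinates are not printed.

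Of 138745 features, 2995 controls were left out, and 36176 clusters with 1 gene symbol were tested, while 1119 with several symbols and 98455 without one were not. Members were matched to RefSeq (GRCh38.p14) by gene ID (1784), symbol (217) or older symbol (42), and 1482 had a start window. Printed sequences come from the RefSeq windows, and the count of motifs at the start was chosen after the data were seen.

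A linear model with a mean for each of the 6 groups was fitted with limma 3.58.1 in R 4.3.3. The residual degrees of freedom were 6 and the prior added 2.46. P-values were adjusted by Benjamini-Hochberg over all 36176 clusters. Figures used Python 3.11.15, pandas 2.3.3 and matplotlib 3.10.9. The model was tested on simulated data with independent noise on each array, so that test does not cover deviations that arrays share. Classes and lists were described by counts and medians without a test. The members, the lists and the settings were chosen with earlier results of these data known. Named members are the 10 called furthest above and below IgG-IP with every HuR-IP array on 1 side. Also named are the 5 extremes of each treatment's calls and the 3 extremes of each drug difference at an unadjusted p under 0.05. The 5 brightest with each antibody and a list of 34 names of described RNAs complete them. Alternatives were other scalings, priors, filters and test sets, a replicate block, and fits without single arrays or without the second HuR-IP arrays of DMSO and gemcitabine.

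As a check of pairing, the deviations of same-numbered arrays were correlated between groups, and every coefficient lay between 0.149 and 0.798. The numbers are in the labels, which do not say what arrays of 1 number share. No 2 arrays held the same values.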

Additional observations from a re-analysis of the deposited data

Results flagged for a closer look

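In 6 of the 61 named clusters both HuR-IP arrays lay above both IgG-IP arrays in 1 treatment and below them in another, as they did in 189 (9.25%) of the 2043 members and 6.55% of all clusters tested. No member passed the adjusted p for a difference between a drug and DMSO (limma, 0 called), and olaparib was not tested against gemcitabine. Values are HuR-IP minus IgG-IP in log2 units.

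LINC01602 had 1.34 in olaparib, 1.19 in gemcitabine and -0.42 in DMSO. LHFPL3-AS2 had 1.06 in olaparib, 1.02 in gemcitabine and -0.83 in DMSO, with unadjusted p = 0.0164 and 0.0181 for the drug minus DMSO differences. LINC01103 had 0.35 in olaparib and -0.88 in DMSO (unadjusted p = 0.0953). LINC01201 had -0.67 in gemcitabine, 0.79 in olaparib and 0.83 in DMSO (unadjusted p = 0.0108 for gemcitabine). DIP2A-IT1 had -0.99 in gemcitabine and 1.25 in DMSO (unadjusted p = 0.0216). LINC00261 had -0.45 in gemcitabine and 0.21 in olaparib, a difference that was not tested. All 6 averaged between 3.68 and 4.92 over the 12 arrays, close to the level of most members.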

How the results depend on the processing

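Of the 33 higher and 21 lower members over the treatments, the counts were 64 and 13 with cyclic loess, 94 and 5 with each array centred on the bright clusters, 62 and 13 with quantile normalization, 34 and 9 among clusters with a mean above 6, 78 and 32 with the replicate block, 92 and 26 when the second HuR-IP arrays of DMSO and gemcitabine were left out, and 161 and 78 at the unadjusted p. Leaving out 1 array at a time gave 7 to 57 higher and 8 to 21 lower, with 57 when the second HuR-IP array of DMSO or of gemcitabine was left out and 15 or fewer when any of the other 10 was. The 7 came without the first IgG-IP array of DMSO. Of the 54 calls, 45 were kept with cyclic loess, 36 with centring, 44 with quantile normalization and 54 with the block, and 0 changed direction. All clusters tested had 2.37% higher and 7.15% lower as reported. They had 5.26% and 4.81% with cyclic loess, 6.46% and 5.04% with centring, and 4.45% and 5.93% with quantile normalization. The block gave 6.37% and 11.1%, and among clusters with a mean above 6 the shares were 11.6% and 25.7%.

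In DMSO (0 and 0) the counts were 1 and 1 with the replicate block, 15 and 1 without both second arrays, and 28 and 46 at the unadjusted p. In olaparib (6 and 4) they were 11 and 1 with cyclic loess, 19 and 3 with centring, 16 and 3 with quantile normalization, 2 and 1 under a prior both trended and robust, 3 and 4 with all transcript clusters tested, 28 and 11 with the block, 23 and 3 with the 4 olaparib arrays alone, 35 and 9 without those arrays, 115 and 45 at the unadjusted p, and 0 to 11 and 0 to 6 without 1 array. In gemcitabine (0 and 1) they were 1 and 0 with cyclic loess, 0 and 0 with centring, 2 and 1 with quantile normalization, 0 and 0 with the trended and robust prior or the 4 gemcitabine arrays alone, 1 and 1 with the brightest cluster of each gene, 4 and 4 with the block, 29 and 2 without those arrays, 71 and 37 at the unadjusted p, and 0 to 1 and 0 to 1 without 1 array. For the drug differences (0 and 0), the unadjusted p gave 39 and 17 for olaparib and 38 and 12 for gemcitabine, and no other setting gave a call. Of all clusters in olaparib, 0.901% and 1.55% were called with cyclic loess, 1.76% and 2.04% with centring, and 1.02% and 2.26% with quantile normalization. The trended and robust prior gave 0.0663% and 0.793%, and the 4 olaparib arrays alone 2.09% and 4.73%. In gemcitabine cyclic loess gave 0.0967% and 0.451%, and quantile normalization 0.113% and 0.802%.

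The cause of these changes was not tested. For single named members, 1546 of 1859 alternative values kept their direction and side of the threshold or moved by less than the replicate spread, 234 lost the threshold, 28 gained it, 51 moved and 0 reversed. The motif count over whole transcripts was not run, as their sequences were not analysed here.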
